A study of Sus scrofa with 6 samples.

Results

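Interferon-stimulated genes are the genes that a cell switches on when interferon binds its receptors. The genes described here were chosen by name, as a list of 35 symbols looked up in the deposited gene table of swine aorta. Of the 35, 28 were found by symbol among 22861 genes. These symbols covered 29 entries because EIF2AK2 had a pair of them. Of the 28, 27 passed the filter on low counts and were tested among 11673 genes. OASL was listed at 0 counts in every pool, and the other EIF2AK2 entry had 15 counts in lesion-free replicate 5 only. The symbols DDX58, TRIM25, HERC5, RSAD2, ISG15, IFI6 and USP18 were absent from the symbol column. DDX58, TRIM25, HERC5, RSAD2 and USP18 could be matched by their gene identifiers and are given separately.

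Type I interferons act through a receptor whose kinases JAK1 and TYK2 phosphorylate STAT proteins. STAT2 and IRF9 are subunits of the resulting complex, ISGF3, that enters the nucleus and turns on antiviral genes such as the MX, OAS and IFIT families. Interferon gamma, made mainly by T and NK cells, acts through another receptor, and IRF1 is one of its classical targets. Macrophages, endothelial cells and smooth muscle cells of the arterial wall can all respond to interferon. Many of the same genes are also induced when viral or displaced cellular nucleic acid is sensed inside the cell.

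The study compared abdominal aorta carrying atherosclerotic lesions from Wisconsin Miniature Swine (WMS) of the FH line, which have inherited high blood cholesterol, with lesion-free abdominal aorta of WMS normal swine. Each group's 11 animals gave RNA for 3 pools, named lesion replicates 1 to 3 and lesion-free replicates 4 to 6. The labels give the line of each pool (FH or normal), but no further genotype and no age, sex, diet or agent. Lesion status and line always went together, so the effects of these cannot be told apart. The pools are the replicates, and p-values measure only the spread between these pools.

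Lesion replicate 1 stood apart in depth, with 4650176 counts and 10754 genes with a count. The other pools held 8492673 to 11442433 counts and 11834 to 13502 genes with a count. Levels below are CPM, that is, counts divided by library size and put on a common base, with libraries scaled by TMM, a trimmed mean of log ratios between them. A count of 3 equals 0.577 CPM in lesion replicate 1 and 0.268 to 0.360 CPM in the other pools, and such floors cover counting error only. Levels are not divided by transcript length, so levels of different genes are not compared. Folds are lesion over lesion-free from limma with voom weights, with the standard error (SE) of the log2 fold and p-values adjusted by Benjamini-Hochberg over all 11673 genes. In bulk tissue, a larger share of cells of a type and more RNA per cell cannot be told apart.

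None of the 27 tested interferon-stimulated genes passed the adjusted threshold of 0.05 in either direction by limma. Over all genes tested, 0.968% were called higher and 0.0771% lower in lesion pools. At an unadjusted p under 0.05, 8 of the 27 (29.6%) were higher in lesion pools and 0 were lower, where the same over all genes tested was 6.49% higher and 4.15% lower. These 8 were IRF1, IFIT3, MX2, EIF2AK2, IFIH1, IFIT5, OAS1 and STAT2. In 11 of 27 (40.7%) every lesion pool lay above every lesion-free pool, and in 0 did every lesion pool lie below, against 10.5% and 8.97% of all genes tested. The 11 were these 8 with DDX60, GBP1 and PARP9. The fitted log2 fold was above 0 for 23 of 27 (85.2%), against 49.9% of all genes tested, and its median was 0.52 against -0.00 for all genes tested. The 4 with a fold below 0 were IRF9, ADAR, MX1 and GBP2, of which ADAR, MX1 and GBP2 had a fold above 0 when libraries were scaled by their plain totals. That scaling moved the median log2 fold of all genes tested to 0.16 and that of the 27 genes to 0.67, which is 0.51 above all genes.

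These counts depended on single pools. Without lesion replicate 3 the count at an unadjusted p under 0.05 was 3 higher (IRF1, IFIT3 and IFIH1) and 1 lower (IRF9). It was 5 higher when lesion-free replicate 4 was left out, 5 when lesion-free replicate 5 was, and between 6 and 9 without any other single pool. IRF1 and IFIT3 kept an unadjusted p under 0.05 whichever pool was left out. The median log2 fold of the 27 genes was 0.36 without lesion replicate 3 and 0.46 to 0.69 without any other pool.

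**Figure D1:**
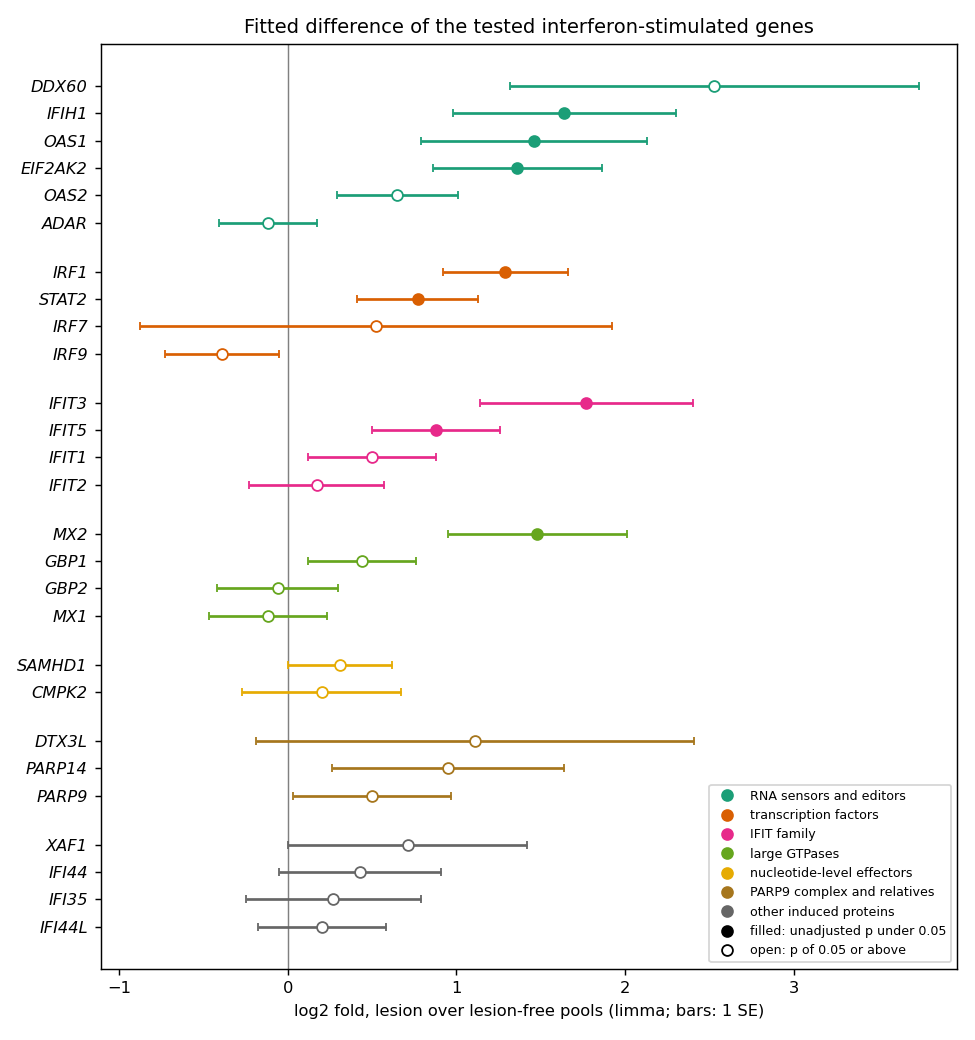
Fitted log2 fold (lesion over lesion-free) of the 27 tested interferon-stimulated genes, grouped by role, with bars of 1 SE either side. The 8 filled points have an unadjusted p under 0.05 and all lie above 0; IRF9, ADAR, MX1 and GBP2 lie below 0, the last 3 not with plain library totals, and MX1 and GBP2 not with sample quality weights.

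Cytoplasmic RNA sensors and RNA-acting enzymes had the highest median of any role with more than 1 tested member, a log2 fold of 1.41 over 6 genes. Of the 6, 3 were higher in lesion pools at an unadjusted p under 0.05, against 6.49% of all genes tested. In 4 every lesion pool lay above every lesion-free pool, against 10.5% of all genes tested, and none was called. IFIH1 encodes MDA5, a helicase that detects long double-stranded RNA. Its levels were 25.0, 9.65 and 12.7 CPM in lesion replicates 1, 2 and 3 and 2.16, 5.28 and 6.51 CPM in lesion-free replicates 4, 5 and 6. Every lesion pool was above every lesion-free pool, with the highest value in lesion replicate 1. The group means were 15.8 ± 8.14 and 4.65 ± 2.24 CPM (SD, n = 3 pools each), a 3.11-fold difference (log2 1.64, SE 0.66, limma adjusted p = 0.379). The table classes IFIH1 and the tested EIF2AK2 entry as processed transcripts rather than as protein-coding.

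EIF2AK2 encodes PKR, a kinase that halts translation when it binds double-stranded RNA. It stood at 15.6, 12.1 and 17.4 CPM in the lesion pools and at 4.86, 7.44 and 5.29 CPM in the lesion-free pools. Here the pools of each group lay close together, and the lowest lesion pool was above the highest lesion-free pool. The means were 15.0 ± 2.70 and 5.86 ± 1.38 CPM, 2.57-fold apart (log2 1.36, SE 0.50, limma adjusted p = 0.314). The log2 fold stayed between 1.21 and 1.54 when any single pool was left out.

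DDX60, a helicase linked to RNA sensing, was the lowest of these in counts, with 27, 43 and 62 in the lesion pools and 5, 3 and 20 in the lesion-free pools. In CPM these were 5.20, 3.84 and 5.67 against 0.540, 0.360 and 2.03. The lesion pools lay close together and all above the lesion-free pools, where lesion-free replicates 4 and 5 were at or near the floor of 3 counts. The fitted fold of 5.78 was the largest of the 27 genes, with an SE also among the largest (log2 2.53, SE 1.21, limma adjusted p = 0.479).

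OAS1 and OAS2, neighbouring genes, make the oligoadenylate that activates RNase L. OAS1 had 7.70, 8.04 and 18.3 CPM in the lesion pools and 2.81, 6.12 and 3.87 CPM in the lesion-free pools. The groups did not overlap, but lesion replicate 3 was far above the other lesion pools, and without it the log2 fold was 0.99. With all pools the fold was 2.76 (log2 1.46, SE 0.67, limma adjusted p = 0.462). OAS2, chosen after its values were seen as the neighbour of OAS1, had 29.5, 53.4 and 72.7 CPM against 44.0, 26.7 and 29.2 CPM. Its groups overlapped, with lesion replicate 1 below lesion-free replicate 4 (log2 0.65, SE 0.36, limma adjusted p = 0.555).

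ADAR, which edits adenosine to inosine in double-stranded RNA, was the only tested gene of this role with a fitted fold below 0. It had 41.0, 46.1 and 62.9 CPM in the lesion pools and 53.2, 53.4 and 56.4 CPM in the lesion-free pools. The lesion-free pools fell inside the range of the lesion pools. The log2 fold was -0.12 (SE 0.29, limma adjusted p = 0.912), with a 95% interval from -0.73 to 0.49, and its sign turned under the plain library total (0.05).

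**Figure D2:**
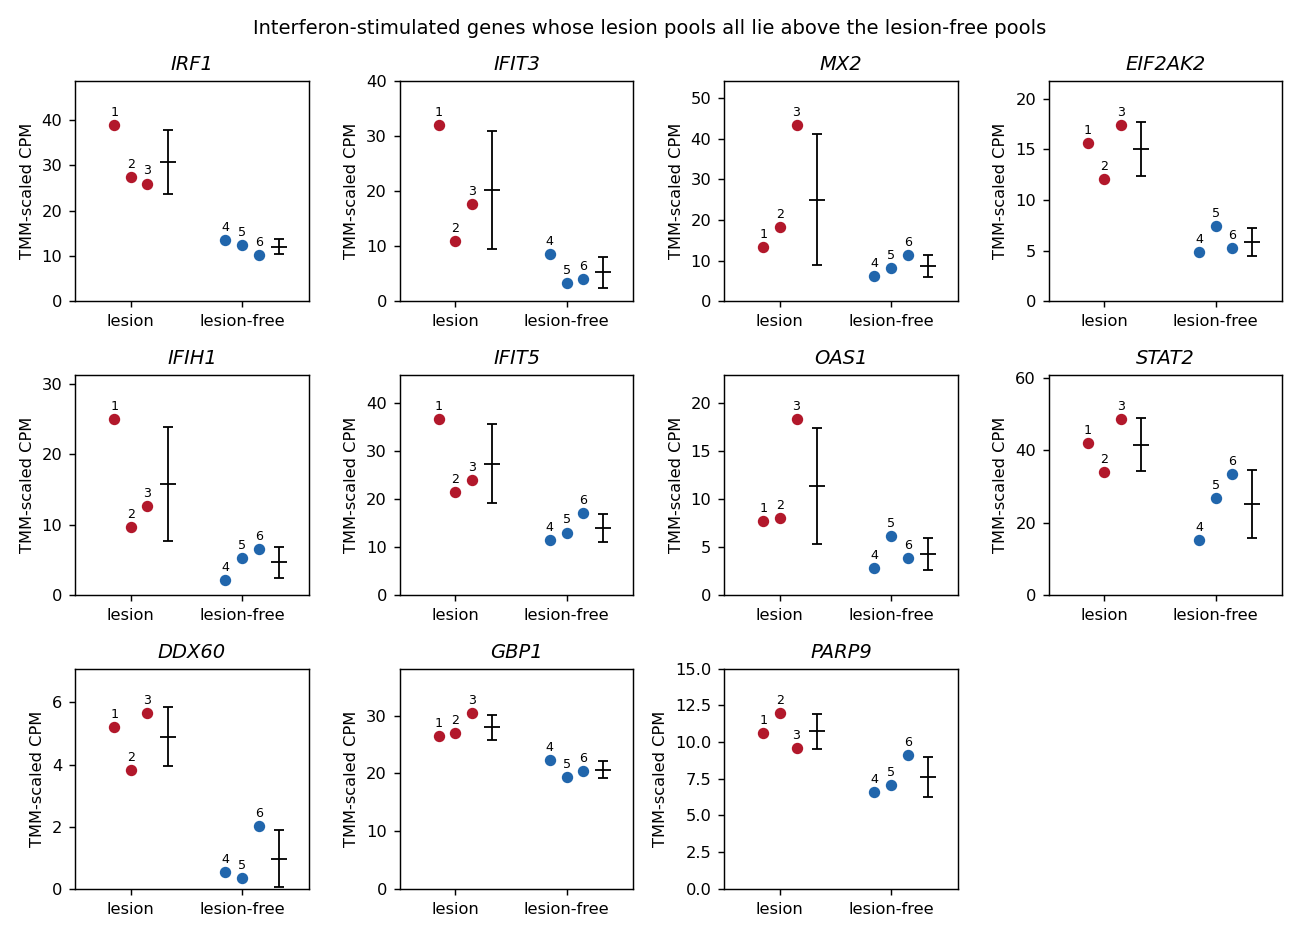
TMM-scaled CPM of the interferon-stimulated genes whose lesion and lesion-free pools did not overlap, one panel per gene with its own axis; points are pools by replicate number, and bars are the group mean ± SD (n = 3). In all 11 panels the 3 lesion pools lie above the 3 lesion-free pools, by little in GBP1 and PARP9.

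Among the transcription factors, IRF1 and STAT2 were higher in every lesion pool, while IRF9 and IRF7 were not. IRF1, induced by both interferon classes and strongly by interferon gamma, had the smallest p of all 27 genes. Its levels were 38.9, 27.5 and 26.0 CPM in the lesion pools and 13.5, 12.5 and 10.2 CPM in the lesion-free pools. The lowest lesion pool was well above the highest lesion-free pool. The lesion-free pools lay close together, while the lesion pools spread about as widely as the gap between the groups. The means of 30.8 ± 7.06 and 12 ± 1.70 CPM were 2.45-fold apart (log2 1.29, SE 0.37). The unadjusted limma p was 0.00359 and the adjusted p 0.163. Over the alternatives the adjusted p ran from 0.0472, with sample quality weights, to 0.462, and IRF1 was the only interferon-stimulated gene called under any of them.

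STAT2, the subunit of ISGF3 that activates transcription, had 42.0, 34.0 and 48.7 CPM in the lesion pools and 15.2, 26.7 and 33.6 CPM in the lesion-free pools. The groups only just failed to touch, since lesion replicate 2 and lesion-free replicate 6 were almost equal. The fold was 1.71 (log2 0.77, SE 0.36, limma adjusted p = 0.464), and without single pools the log2 fold ran from 0.44 to 1.03. IRF9, the DNA-binding subunit of the same complex, had 48.3, 78.2 and 133 CPM in the lesion pools and 133, 111 and 85.2 CPM in the lesion-free pools. The ranges overlapped fully, and lesion replicates 1 and 2 lay below all lesion-free pools. The log2 fold was -0.39 (SE 0.34, limma adjusted p = 0.718), and -0.76 without lesion replicate 3.

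IRF7, the factor that amplifies type I interferon production, varied more between pools than between groups. It had 0, 114 and 110 counts in the lesion pools and 54, 11 and 24 counts in the lesion-free pools. Lesion replicate 1 had no count, which allows up to 0.577 CPM there, while the other lesion pools stood at 10.2 and 10.1 CPM, above all lesion-free pools. The log2 fold of 0.52 (SE 1.40, limma adjusted p = 0.922) became 1.87 without lesion replicate 1 and was below 0 without lesion replicate 2 (-0.57) or 3 (-0.55). IRF7 is given in full because of that count of 0, a choice made after its values were seen.

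The IFIT proteins bind viral RNA ends and block its translation. All 4 IFIT genes tested had a log2 fold above 0, with a median of 0.69, and IFIT3 and IFIT5 had groups that did not overlap. IFIT3, a stabilizing partner of IFIT1, had 32.0, 11.0 and 17.6 CPM in the lesion pools and 8.53, 3.36 and 3.97 CPM in the lesion-free pools. Both groups were widely spread, with lesion replicate 1 the highest pool, and did not overlap. The means were 20.2 ± 10.7 and 5.28 ± 2.82 CPM, 3.41-fold apart (log2 1.77, SE 0.63, limma adjusted p = 0.284). Without any single pool the log2 fold ran from 1.50 to 2.17.

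IFIT5 had 36.6, 21.4 and 23.9 CPM in the lesion pools and 11.5, 13.0 and 17.1 CPM in the lesion-free pools. The fold was smaller, 1.85 (log2 0.88, SE 0.38, limma adjusted p = 0.422), and lesion replicate 1 was again the highest pool. IFIT2, IFIT3 and IFIT1 follow one another in the pig reference annotation (Sscrofa11.1), without another protein-coding gene between them, yet only IFIT3 of the trio showed separate groups. The log2 fold of IFIT1 was 0.50 (SE 0.38) and that of IFIT2 was 0.17 (SE 0.40), with limma adjusted p-values of 0.671 and 0.911. Differences in fold between these neighbours were not tested.

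The large GTPases comprise the antiviral MX proteins and the guanylate-binding proteins, which attack the vacuoles of intracellular microbes. Their median log2 fold was 0.19 over 4 genes. MX2 had 13.3, 18.4 and 43.4 CPM in the lesion pools and 6.26, 8.15 and 11.5 CPM in the lesion-free pools. The groups did not overlap, but lesion replicate 3 was far above the other lesion pools. The fold was 2.79 (log2 1.48, SE 0.53, limma adjusted p = 0.288), and without lesion replicate 3 the log2 fold was 0.95 and the unadjusted p was over 0.05.

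MX1, the neighbour of MX2, had 80.7, 102 and 201 CPM in the lesion pools and 185, 110.4 and 107 CPM in the lesion-free pools. Lesion replicate 3 and lesion-free replicate 4 were the high pools of their groups, and the other 4 ranged from 80.7 to 110.4 CPM. The means were 128 ± 64.2 and 134 ± 43.7 CPM. The log2 fold was -0.12 (SE 0.35, limma adjusted p = 0.930), with a 95% interval from -0.86 to 0.63. Its sign turned under the plain library total (0.06), with sample quality weights (0.16), and without lesion replicate 1 or lesion-free replicate 4 (0.14 each).

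GBP1 had 26.4, 27.0 and 30.5 CPM in the lesion pools and 22.3, 19.3 and 20.4 CPM in the lesion-free pools. Both groups were tight and did not overlap, but the fold was only 1.36 (log2 0.44, SE 0.32, limma adjusted p = 0.657). GBP2, its neighbour, had a log2 fold of -0.06 (SE 0.36, limma adjusted p = 0.969) that was 0.08 under the plain library total.

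Among enzymes that act on nucleotides, SAMHD1, which breaks down deoxynucleotides, had 38.9, 34.6 and 33.6 CPM in the lesion pools and 34.2, 22.8 and 29.0 CPM in the lesion-free pools. Lesion replicate 3 lay just below lesion-free replicate 4, so the groups overlapped (log2 0.31, SE 0.31, limma adjusted p = 0.757). CMPK2, a mitochondrial nucleotide kinase, had a log2 fold of 0.20 (SE 0.47, limma adjusted p = 0.911), which was -0.39 without lesion replicate 3.

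PARP9 and DTX3L act as a pair that modifies histones and viral proteins, and PARP14 is a related ADP-ribosyltransferase. PARP9 and DTX3L are neighbours in the reference, with PARP14 1 protein-coding gene away. PARP9 had 10.6, 12 and 9.59 CPM in the lesion pools and 6.58, 7.08 and 9.15 CPM in the lesion-free pools. The groups did not overlap by a narrow margin, with a fold of 1.41 (log2 0.50, SE 0.47, limma adjusted p = 0.736). DTX3L rested on few counts, 2, 38 and 66 against 26, 13 and 5, and its groups overlapped (log2 1.11, limma adjusted p = 0.797). PARP14 had a log2 fold of 0.95 (SE 0.69, limma adjusted p = 0.651), and 1.75 without lesion replicate 2. DTX3L and PARP14 are named to complete the trio, after their values were seen.

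The other induced proteins were IFI44, IFI44L, XAF1, which promotes apoptosis, and IFI35. None had separate groups, and their log2 folds ran from 0.20 to 0.71. IFI44L had 45.6, 21.3 and 33.9 CPM in the lesion pools and 38.9, 23.1 and 20.9 CPM in the lesion-free pools. The highest pool was lesion replicate 1, and lesion replicate 2 was lower than lesion-free replicates 4 and 5 (log2 0.20, SE 0.38, limma adjusted p = 0.882). IFI35 had a log2 fold of 0.27 (SE 0.52, limma adjusted p = 0.887) that was -0.10 when lesion replicate 3 was left out and -0.07 when lesion-free replicate 5 was.

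The 5 listed genes matched only by identifier all had groups that overlapped. HERC5, a ligase of the ubiquitin-like protein ISG15, had 10.2, 6.17 and 14.4 CPM in the lesion pools and 7.34, 3.48 and 3.97 CPM in the lesion-free pools, with a log2 fold of 1.01 (SE 0.63, limma adjusted p = 0.594). DDX58, which encodes the RNA sensor RIG-I, had a log2 fold of 0.51 (SE 0.34, limma adjusted p = 0.629). TRIM25, which activates RIG-I, had 0.34 (SE 0.87), RSAD2, which encodes viperin and carries the symbol IRG6 in the table, had 0.35 (SE 0.77), and USP18, which removes ISG15, had -0.03 (SE 0.51). Their limma adjusted p-values were 0.916, 0.901 and 0.991. With these 5 added, the median log2 fold over 32 genes was 0.51, 0 were called and 8 had an unadjusted p under 0.05. ISG15 and IFI6 were matched by neither and are not analysed here.

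**Figure D3:**
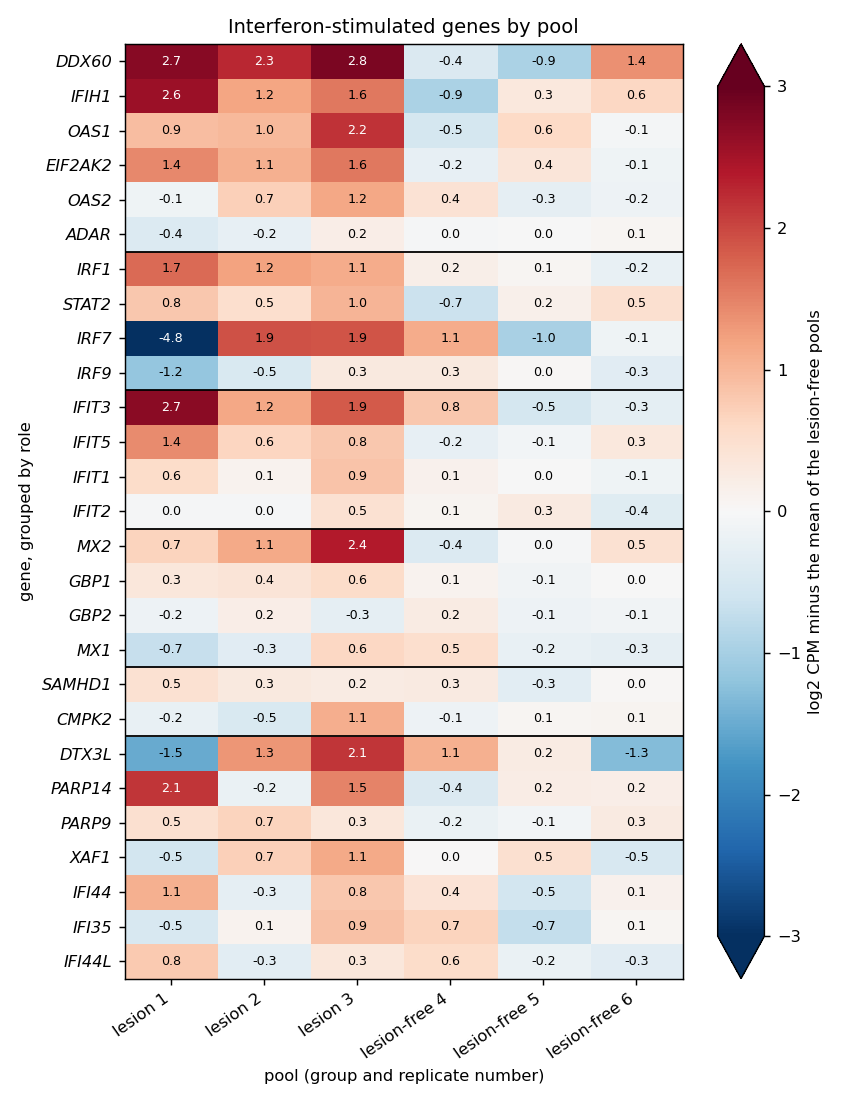
Log2 CPM of each tested interferon-stimulated gene in each pool minus its lesion-free mean, genes grouped by role, with the value in each cell. Lesion replicate 3 is above the lesion-free mean in 26 of 27 genes; the strongly negative IRF7 cell in lesion replicate 1 is a count of 0 and depends on the 0.5 added before the log.

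The lesion pools differed in how far the set stood above the lesion-free mean. Its median log2 difference was 0.49 in lesion replicate 1, 0.51 in lesion replicate 2 and 1.02 in lesion replicate 3. Over all genes tested the corresponding medians were -0.09, 0.08 and 0.08. Lesion replicate 3 had the largest difference, with 26 of 27 genes above the lesion-free mean against 56.0% of all genes tested. In lesion replicate 1 the count was 16 of 27, against 47.1% of all genes tested, and in lesion replicate 2 it was 19 of 27, against 55.8%. The lesion-free pools had medians of 0.11, -0.04 and -0.07. The summed level of the 27 genes, which a few abundant ones such as MX1 and IRF9 dominate, was 653, 623 and 953 CPM in the lesion pools and 691, 545 and 539 CPM in the lesion-free pools. By this sum only lesion replicate 3 stood above all lesion-free pools.

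Of the 27 genes, 16 (59.3%) had their highest value of all 6 pools in lesion replicate 3, where 12.9% of all genes tested did. Lesion replicate 1 was highest for 8 (29.6%, against 26.5% of all genes tested), among them IRF1, IFIT3, IFIT5 and IFIH1. MX1, MX2, OAS1, OAS2, STAT2 and ADAR were all highest in lesion replicate 3. The labels do not say which animals entered a pool, so whether lesion replicate 3 held animals with a particular condition was not tested.

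Macrophage markers moved with lesion status. Over all genes tested, 0.968% were called higher in lesion pools. Of 15 macrophage markers listed, 14 were matched and 13 tested, and 11 were called higher in lesion pools, with a median log2 fold of 3.02. Their summed level was 2624, 1624 and 2765 CPM in lesion replicates 1, 2 and 3 and 225 to 410.2 CPM in the lesion-free pools. CD163, a scavenger receptor of tissue macrophages, was at or near 0 in all 6 pools, with at most 0.712 CPM. The median log2 difference from the lesion-free mean was 3.34, 2.61 and 3.40 for these markers in lesion replicates 1, 2 and 3, beside 0.49, 0.51 and 1.02 for the interferon-stimulated genes. The part of macrophage number in the levels of the interferon-stimulated genes was not tested.

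Of 7 tested smooth muscle markers 2 were called lower, against 0.0771% of all genes tested. These were CNN1 (calponin) and DES (desmin) of the contractile cytoskeleton, and the list median log2 fold was -0.93. The lists for T and NK cells (5 of 16 tested), B and plasma cells (2 of 9), plasmacytoid dendritic cells (3 of 8), neutrophils (1 of 7), endothelium (10 of 12), adventitial fibroblasts (9 of 9) and adipocytes (2 of 6) had 0 genes called. Their median log2 folds were 2.21, 0.13, 2.64, 7.66, 0.49, -0.21 and -0.01 in that order. The neutrophil value is MMP9 alone, a protease that macrophages also make. The plasmacytoid dendritic cell value is that of TLR9, between TLR7 (log2 3.51) and TCF4 (log2 0.26). TLR7 and TLR9 are also in the list of nucleic acid sensing below, so these lists are not independent. The summed T and NK markers were 58.7, 29.5 and 70.7 CPM in the lesion pools and 3.00 to 9.17 CPM in the lesion-free pools, and NKG7 made up 53.1, 18.3 and 56.3 CPM of it in the lesion pools. Their part in the result was likewise not tested.

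**Figure D4:**
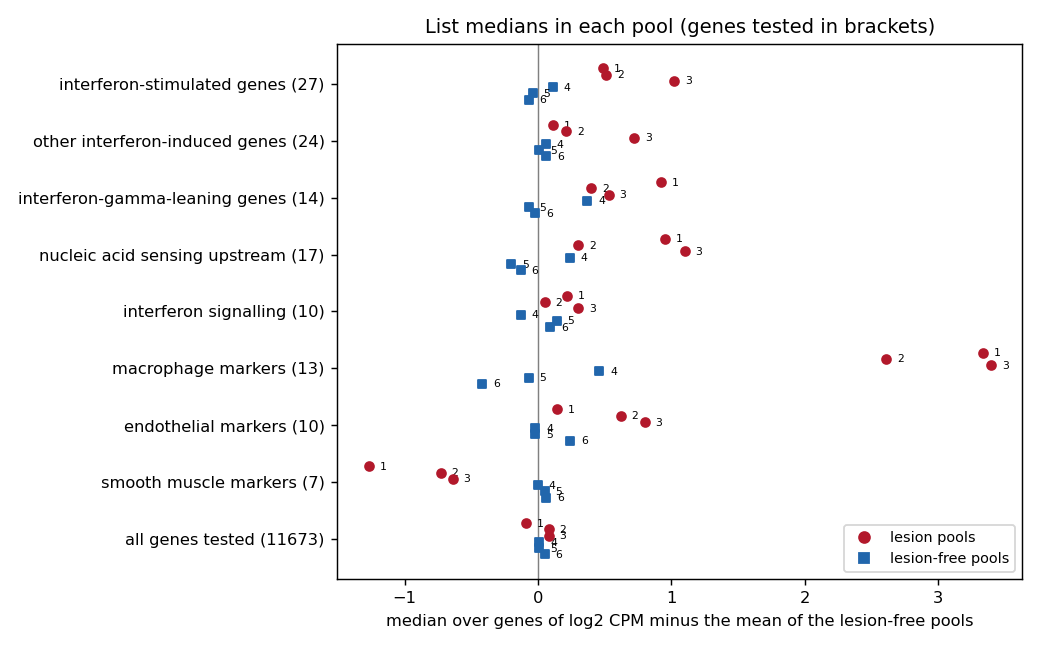
For each gene list and pool, the median over tested genes of log2 CPM minus the mean of the lesion-free pools; circles are lesion pools, squares lesion-free pools, numbers the replicates. The interferon-stimulated genes lie at 0.49, 0.51 and 1.02 in the lesion pools, the macrophage markers at 2.61 to 3.40 and all genes tested at -0.09 to 0.08.

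Upstream of these genes, the interferons themselves were barely represented. Of 12 listed ligands 8 were matched and 1 was tested, the interferon alpha gene listed as IFN-ALPHA-2. It had 0, 2.77 and 1.28 CPM in the lesion pools and 1.94, 0 and 0.407 CPM in the lesion-free pools, without order between the groups (log2 1.31, SE 2.07, limma adjusted p = 0.859). IFNB1, IFNG, IFNE and IFNK were listed at 0 in every pool. At this depth, a count of 0 allows 0.268 to 0.577 CPM per pool.

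Of 6 listed receptor chains 1 was matched. IFNGR1, the ligand-binding chain of the interferon gamma receptor, had 67.2, 25.1 and 30.0 CPM in the lesion pools and 9.28, 24.7 and 16.5 CPM in the lesion-free pools. The groups were separated by the small gap between lesion replicate 2 and lesion-free replicate 5 (log2 1.16, SE 0.45, limma adjusted p = 0.356).

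Of 11 genes of signalling below the receptors, 10 were tested, with a median log2 fold of 0.15. Among the 10, 1 was called higher, against 0.968% of all genes tested, and 0 lower. The gene called was PTPN6, which encodes SHP-1, a phosphatase of blood cells that damps JAK kinases. It had 40.8, 38.2 and 50.3 CPM in the lesion pools and 10.5, 8.39 and 5.80 CPM in the lesion-free pools (log2 2.43, SE 0.41, limma adjusted p = 0.00783). Leaving out lesion-free replicate 6 ended the call (adjusted p = 0.0659). The kinases JAK2 (log2 1.19, limma adjusted p = 0.350) and TYK2 (log2 -0.50, limma adjusted p = 0.587) are named after their values were seen.

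Of 24 genes of nucleic acid sensing upstream of interferon, 17 were tested and 0 were called. At an unadjusted p under 0.05, 5 were higher and 0 lower, against 6.49% and 4.15% of all genes tested. Separate groups, all higher in lesion pools, were seen in 7, against 10.5% of all genes tested. The median log2 fold was 0.73, against -0.00 for all genes tested. IRF5, a factor of macrophages and B cells downstream of Toll-like receptors, had 35.6, 19.4 and 26.4 CPM in the lesion pools and 7.12, 0.480 and 1.63 CPM in the lesion-free pools (log2 3.71, SE 0.94, limma adjusted p = 0.0931). The lesion pools were all well above the lesion-free pools, and IRF5 was called under 2 alternatives, sample quality weights and limma-trend on log2(CPM + 1) (adjusted p = 0.0189 in each). TLR9, the receptor of unmethylated DNA, had a log2 fold of 2.64 (SE 0.83, limma adjusted p = 0.212), which was called without lesion replicate 2 (3.16, adjusted p = 0.0497). STING1, the adaptor of cytosolic DNA sensing, had 15.4, 10.1 and 15.9 CPM against 5.94, 5.88 and 2.34 CPM (log2 1.63, SE 0.61, limma adjusted p = 0.324).

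Of 40 further interferon-induced genes outside the 35, 24 were tested and 0 were called. At an unadjusted p under 0.05, 3 were higher and 0 lower, against 6.49% and 4.15% of all genes tested. The median log2 fold was 0.34, against -0.00 for all genes tested. The 3 were TNFSF10, which encodes the death ligand TRAIL (log2 1.56, SE 0.50, limma adjusted p = 0.215), RNF213, a large ubiquitin ligase (log2 1.14, SE 0.43, limma adjusted p = 0.338), and TRIM34. TRIM34 carries the symbol TRIM6 in the table, its near copy, and its value of 1.74 is uncertain for that reason.

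Of 24 genes that lean towards interferon gamma, 14 were tested, with a median log2 fold of 0.64. Among the 14, 1 was called higher and 0 lower, against 0.968% and 0.0771% of all genes tested. The fold was above 0 for 9 and below 0 for 5. Those below 0 include WARS (log2 -1.55) and WARS1 (log2 -0.17), separate entries that carry the same symbol, WARS, in the table. These counts and the median thus hold that symbol more than once. PSMB9, listed as LMP2, had 0, 37 and 25 counts in the lesion pools and 33, 43 and 41 in the lesion-free pools. In CPM its lesion pools all lay below the lesion-free pools (log2 -1.69, SE 1.29, limma adjusted p = 0.675). IFI30, a thiol reductase of antigen-processing lysosomes, was the gene called, and it is abundant in macrophages. It had 203, 81.1 and 113 CPM in the lesion pools and 24.8, 14.5 and 18.6 CPM in the lesion-free pools (log2 2.67, SE 0.40, limma adjusted p = 0.00291). The lowest lesion pool was far above the highest lesion-free pool, and the call held without any single pool. ICAM1, an adhesion molecule that leukocytes bind, had a log2 fold of 1.29 (SE 0.33, limma adjusted p = 0.0967). FCGR1A, an immunoglobulin receptor of macrophages, had a log2 fold of 5.49 (SE 1.59, limma adjusted p = 0.163). Its counts were 99, 151 and 222 in the lesion pools and 21, 0 and 3 in the lesion-free pools. Lesion-free replicates 5 and 6 were thus at or below the floor of 3 counts, and the size of its fold is uncertain. ICAM1 was called with plain library totals (adjusted p = 0.0462) and with sample quality weights (adjusted p = 0.0237). FCGR1A was called without a filter (adjusted p = 0.0205), with limma-trend (0.0389), with limma-trend on log2(CPM + 1) (0.00847) and with sample quality weights (0.0404). ICAM1, FCGR1A and PSMB9 are named after their values were seen.

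Isoform counts, estimated by the authors, could be tied to 24 of the 28 genes, 13 with 1 isoform and 11 with several. Of 43 such isoforms 31 were tested and 0 were called, where 0.450% of 12666 isoforms were called. At an unadjusted p under 0.05 there were 6, IRF1-001, MX2-201, IFIT3-201, IFIH1-201, IFIT5-201 and IFIT2-002, all higher in lesion pools, where 5.33% of all isoforms tested were higher at that p. The first 5 belong to genes described above. IFIT2-002 had 5, 14 and 16 counts in the lesion pools and 0 in every lesion-free pool, and passed the filter through the lesion pools only. Whether the isoforms of a gene changed unequally was tested in 601 genes, of which 0% were called, and in 5 of these genes (IFIT2, IFIT1, GBP2, GBP1 and MX1), of which 0 were called and 0 had an unadjusted p under 0.05. The smallest p was that of IFIT2 (limma diffSplice, adjusted p = 0.923).

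Some isoform shares switched between pools of the same group. MX1-002 held all MX1 isoform counts in lesion replicate 1, with 419, and 0 of them in lesion replicate 2 and lesion-free replicates 4 and 5. MX1-001 and MX1-201 carried identical counts in every pool (0, 569 and 1008 in the lesion pools, 855, 461 and 505 in the lesion-free pools), so the deposited values do not separate them. GBP2-001 had 0, 93 and 173 counts in the lesion pools and 211, 144 and 108 in the lesion-free pools, while GBP2-002 had 89, 155 and 0 against 0, 0 and 67. XAF1-202 held the XAF1 isoform counts of lesion replicates 1 and 2, with 14 and 74, and XAF1-201 those of lesion replicate 3, with 97. These switches ran between pools of 1 group as well as between groups.

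**Figure D5:**
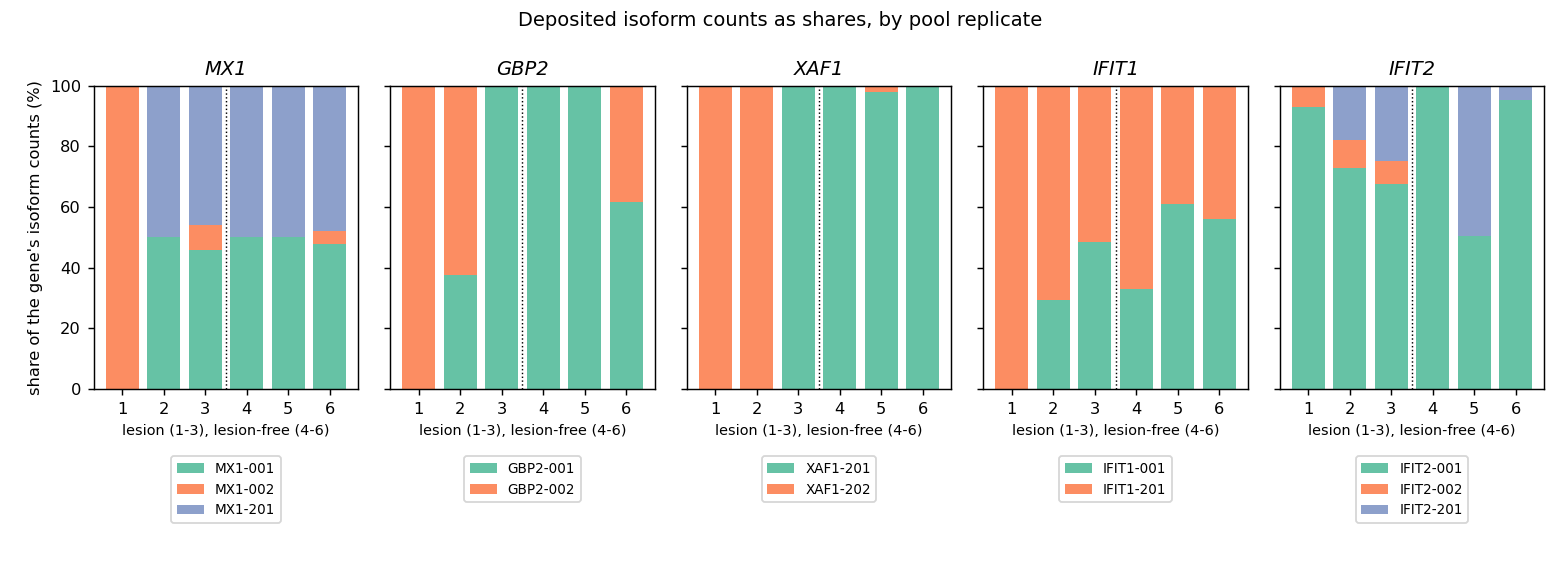
Share of each gene's isoform counts (%) held by each isoform in lesion replicates 1 to 3 and lesion-free replicates 4 to 6, for MX1, GBP2, XAF1, IFIT1 and IFIT2; a dotted line parts the groups. MX1-002 fills lesion replicate 1 alone, and GBP2 and XAF1 change their main isoform among the lesion pools.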

How the data were processed

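RNA of abdominal aorta was measured by RNA sequencing in 6 pools, grouped by the lesion status in the labels. Per the labels' protocols, libraries came from a stranded total RNA kit. The authors deposited estimated read counts per gene and isoform as whole numbers. The submitters' processing notes name RSEM 1.3.0 and edgeR but no role for them. The aligner, the build and the use of strand in counting were not given in the sources used here. RSEM shares reads among similar sequences, so values of near copies (MX, OAS, IFIT, GBP and IFI44 families) and of isoforms are uncertain.

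Commas within numbers were removed. The values left were whole numbers, but a count model was not run on them. The test was limma 3.58.1 in R 4.3.3, with voom weights, 0.5 added to each count and robust empirical Bayes. Genes needed 1.00 CPM, which is 10 counts in a library of median size, in at least 3 pools and at least 15 counts in all. TMM trimmed 30% of M and 5% of A. Tests were two-sided, and a gene with an adjusted p under 0.05 is called. Within a group, pairs of pools differed with a chi-square of 22.7 to 97.7 per degree of freedom, so no pool repeated another. Of all identifiers, 50.1% had a name in the reference table.

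Isoforms were tied to a gene where their name gave the symbol of 1 gene and their counts summed to its count within 1. Isoform use was tested with diffSplice and Simes p-values. The procedure was tested on simulated data with the same spread for all genes. For genes, 10.4% of 2-fold, 77.6% of 4-fold and 98.5% of 8-fold changes were called, and 8.15% of calls were false. For isoforms these were 1.49%, 62.7%, 95.5% and 5.36%. Most 2-fold changes were thus missed, so a gene not called may still differ. Alternatives were other scalings, filters, weights and fits, and leaving out each pool.

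The genes and lists were chosen with earlier results of these data known. Values in every pool are given for genes called, with an unadjusted p under 0.05 or with separate groups, and for the gene of each role with the highest mean log2 CPM (IFIT5, PARP9, ADAR, MX1, SAMHD1, IFI44L and IRF9). From pathway lists, called genes are named, otherwise up to 3 with the smallest p. Others are said to be chosen later.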

Additional observations from a re-analysis of the deposited data

How the results depend on the processing

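Over 15 alternatives on the gene table, 6 of which left out a pool, 384 of 402 fold values of the 27 genes kept their direction and side of the threshold, 17 changed sign and 1 became called. The 1 was IRF1 with sample quality weights (log2 1.27, limma adjusted p = 0.0472), which makes the number called higher 1 there and 0 in every other alternative. At an unadjusted p under 0.05 the number higher ran from 3 to 9 and the number lower from 0 to 1 when single pools were left out. Over all genes, 171 were higher and 17 lower without a filter, 201 and 14 with log2(CPM + 1), 213 and 40 with quality weights, and 54 to 150 and 3 to 36 without single pools, against 113 and 9. Plain library totals moved the median of all genes to 0.16. Signalling genes called higher numbered 0 to 1 without single pools, and so did sensing genes, of which 1 (IRF5) was called with quality weights and 1 with log2(CPM + 1), the latter chosen for the lists after seeing the data. Genes leaning to interferon gamma called higher numbered 2 with plain totals, 2 without a filter, 2 with limma-trend, 2 with log2(CPM + 1) and 3 with quality weights (IFI30 with ICAM1, FCGR1A or both). Signs turned for MX1 (0.06 with plain totals, 0.16 with quality weights), ADAR (0.05 with plain totals), GBP2 (0.08 with both) and IRF7 (-0.03 with limma-trend). Without single pools, log2 folds ran from -0.50 to 0.14 for MX1, -0.03 to 0.29 for IFIT2, -0.57 to 1.87 for IRF7, -0.39 to 0.60 for CMPK2, -0.10 to 0.60 for IFI35 and -0.23 to 0.07 for GBP2. For isoforms and isoform use of these genes, 0 were called under plain totals, without a filter and without each pool. The cause of these changes was not tested. A floor of 3 counts, 0.577 CPM in lesion replicate 1, is the smallest level told from 0 there. No paired analysis was possible because the groups share no replicate number.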
